A study of Homo sapiens with 6 samples.

Results

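The mRNAs of 9 genes of the telomere were followed in U2OS cells, a human osteosarcoma line: the 6 shelterin genes TERF1, TERF2, TERF2IP, TINF2, ACD and POT1, the chromatin genes ATRX and DAXX, and TERT. They were chosen by name and make up 9 of the 58051 gene identifiers in the count table. The tested cells received an siRNA against SURF2 (siSURF2, 3 libraries) and the controls a scrambled siRNA (siSCR, 3 libraries). Both groups were the same line under the same culture, had 2 transfections 49 h apart and were taken at 96 h for polyA RNA sequencing. By its title the series asks how SURF2 and MDM2 act in nucleolar stress. Nothing in the labels tells whether the replicates came from separate cultures. The spread behind each p-value is that between libraries and may be technical. As 1 cell line treated with siRNA, the libraries describe U2OS and no other telomerase-negative cell.

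Shelterin covers chromosome ends. TRF1 (TERF1) and TRF2 (TERF2) bind duplex telomeric repeats, RAP1 (TERF2IP) rides on TRF2, POT1 holds the single-stranded overhang, TPP1 (ACD) carries POT1 and recruits telomerase, and TIN2 (TINF2) ties TPP1 to TRF1 and TRF2. Most tumours extend their ends with telomerase, whose catalytic subunit is TERT and whose template RNA is TERC. U2OS is a standard model of the other route, alternative lengthening by recombination, and is known to lack ATRX protein, which with its partner DAXX places histone H3.3 at telomeres.

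Libraries held between 17123333 and 19688089 counts assigned to genes. SURF2 itself was at 3.74, 3.56 and 3.20 CPM (counts scaled to library size with TMM factors) in siSURF2 replicates 1, 2 and 3, against 36.2, 35.8 and 32.3 CPM in siSCR replicates 1, 2 and 3, a 9.93-fold lower level. A library stood apart from its group. In siSURF2 replicate 2, mitochondrially encoded genes held 2.73% of the counts, against 4.70% and 4.74% in siSURF2 replicates 1 and 3 and 2.91% to 3.50% in siSCR. Over genes, its counts stood apart from those of replicates 1 and 3 with a chi-square of 7.96 and 9.19 for each degree of freedom, while replicates 1 and 3 gave 2.68. No pair of libraries in a group agreed within sampling noise. Of 12 mesenchymal and osteoblast markers, 7 were at a mean of at least 1 CPM, while SP7, BGLAP, IBSP, COL1A2 and TWIST1 were below it. Summed levels of the 12 were 3500 to 3840 CPM in siSURF2 and 3160 to 3210 CPM in siSCR. Summed levels of 4 blood markers were 0.900 to 1.37 CPM in siSURF2 and 0.714 to 1.23 CPM in siSCR. Those of 3 endothelial markers were 3.20 to 4.25 CPM in siSURF2 and 4.40 to 5.39 CPM in siSCR. Those of 4 epithelial markers were 9.45 to 10.5 CPM in siSURF2 and 8.63 to 8.93 CPM in siSCR. The groups did not overlap in the mesenchymal, endothelial and epithelial sums, and the part of these differences in the results was not tested. Single genes did not overlap in 57.3% of all genes tested, so such separation was common in these libraries.

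TERT was at the edge of detection in both groups. TERT (ENSG00000164362, chromosome 5, 1253147 to 1295069, GRCh38) had 0, 1 and 2 counts in siSURF2 replicates 1, 2 and 3, against 1, 1 and 0 counts in siSCR replicates 1, 2 and 3. The groups overlapped, and the gene fell below the filter on low counts, so it was not tested. Summed over a group, this was 0.0525 CPM in siSURF2 (exact 95% Poisson interval 0.0108 to 0.153) and 0.0360 CPM in siSCR (0.00436 to 0.130). These intervals cover counting error only. TERC, the template RNA, had 0 counts in all 6 libraries. Its exact 95% Poisson intervals reach 0.0645 CPM in siSURF2 and 0.0664 CPM in siSCR. A floor of 3 counts over a group is 0.0525 CPM in siSURF2 and 0.0540 CPM in siSCR. TERC mostly lacks a polyA tail, so a polyA library says little about it. The 5 markers of pluripotent and germ cells, which carry telomerase, summed to 0.207 to 0.350 CPM in siSURF2 and 0.298 to 0.588 CPM in siSCR.

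The other 8 genes were all expressed, DAXX highest and TERF1 and POT1 lowest. Levels of different genes were compared as CPM per kb of annotated exon. DAXX was at 19.3 ± 1.60 CPM per kb in siSURF2 and 31.0 ± 1.03 in siSCR (mean ± SD, n = 3 each, as for the genes that follow), which placed it above 89.2% of the 13649 protein-coding genes tested in siSCR. TINF2 was at 13.1 ± 0.0847 CPM per kb in siSURF2 and 17.1 ± 1.25 in siSCR, and ACD at 8.16 ± 0.559 in siSURF2 and 12.4 ± 1.08 in siSCR. TERF2IP, at 15.8 ± 0.656 CPM per kb in siSURF2 and 10.7 ± 0.654 in siSCR, overlapped with ACD over the siSCR libraries, so that this pair has no clear order in control cells.

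Lower in the order stood TERF2, at 8.25 ± 0.578 CPM per kb in siSURF2 and 9.35 ± 0.192 in siSCR, and ATRX, at 10.5 ± 0.619 in siSURF2 and 8.61 ± 0.426 in siSCR. POT1 was at 3.98 ± 0.400 CPM per kb in siSURF2 and 3.96 ± 0.232 in siSCR. TERF1, at 3.91 ± 0.280 in siSURF2 and 3.3 ± 0.245 in siSCR, was the lowest and lay above 39.5% of protein-coding genes in siSCR. Apart from TERF2IP and ACD, neighbours in this order did not overlap over the 3 siSCR libraries. The order depends on the length used. With the longest annotated transcript as length, 4 of the 8 genes kept their rank: TERF2 moved up to 17.6 CPM per kb and ACD, at 15.9, below it, and TERF1 (8.10) stood above POT1 (5.72), since annotated exons of TERF1 cover 8831 bases.

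**Figure D1:**
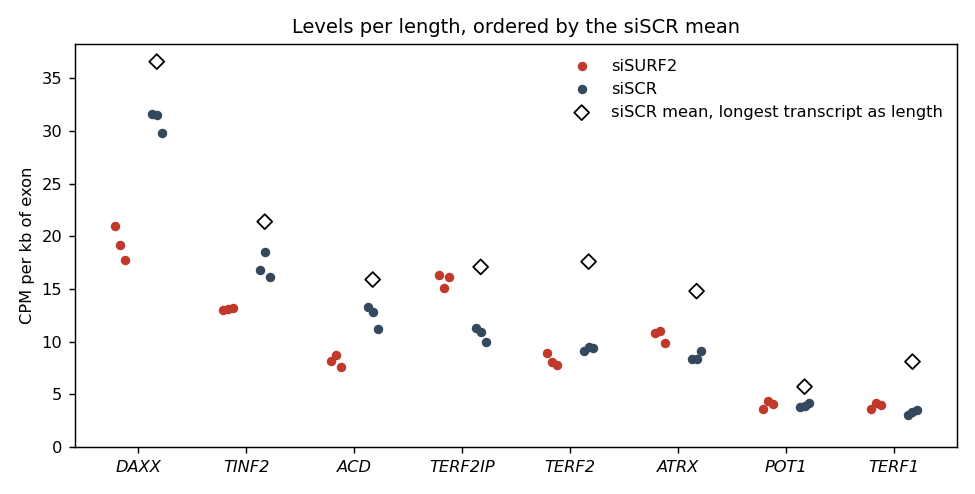
Levels per length of the 8 expressed genes, ordered by the siSCR mean. The vertical axis is CPM per kb of annotated exon, points are libraries (siSURF2 left, siSCR right) and diamonds the siSCR mean with the longest transcript as length, where TERF2 moves to 17.6. TERF2IP lies above TINF2 in siSURF2 libraries and below it in siSCR libraries.

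The shelterin mRNAs differed between siSURF2 and siSCR in both directions. TERF2IP and TERF1 rose, ACD, TINF2 and TERF2 fell, and POT1 did not pass the threshold. Outside shelterin, ATRX rose and DAXX fell. In all, 7 of the 8 genes tested passed an adjusted p of 0.05 (edgeR quasi-likelihood test, Benjamini-Hochberg over 17561 genes), 3 higher and 4 lower. Over all genes tested 52.0% passed, 25.8% higher and 26.2% lower, so a count of 7 says little about telomere genes as a group. The groups did not overlap in these same 7 genes, as in 57.3% of all genes tested. The median absolute log2 fold change of all genes was 0.29. In bulk RNA, a change in the share of cells that express a gene and a change per cell cannot be told apart. The series holds no other siRNA treatment against SURF2 and no rescue. Loss of SURF2 and other effects of the siRNA therefore cannot be told apart either.

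Among the subunits on duplex repeats, TERF2IP rose and its anchor TERF2 fell slightly. TERF2IP (ENSG00000166848, chromosome 16, 75647786 to 75761872), which encodes RAP1, was at 55.2, 51.0 and 54.4 CPM in siSURF2 replicates 1, 2 and 3, against 38.1, 36.8 and 33.8 CPM in siSCR replicates 1, 2 and 3. Each siSURF2 library was above each siSCR library, with a log2 fold change of 0.56 ± 0.06 (SE) and an edgeR adjusted p of 2.2e-08. Its exons share 176 bases, 5.21% of their length, with KARS1 on the opposite strand. Whether the counting used strand is not stated in the labels. KARS1, a lysyl-tRNA synthetase, fell to 234 ± 8.97 CPM in siSURF2, against 292 ± 8.42 CPM in siSCR, and its part in the TERF2IP count was not tested.

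TERF2 (ENSG00000132604, chromosome 16, 69355561 to 69408571) encodes TRF2, which keeps ends from being joined. It was at 50.0, 45.1 and 43.9 CPM in siSURF2 replicates 1, 2 and 3, against 51.3, 53.3 and 53.0 CPM in siSCR replicates 1, 2 and 3. Every siSURF2 library was lower, but siSURF2 replicate 1 lay close to the lowest siSCR library. The log2 fold change was -0.18 ± 0.06 (edgeR adjusted p = 0.016). This call was lost without siSURF2 replicate 2 (adjusted p = 0.0573), siSURF2 replicate 3 (0.096) or siSCR replicate 2 (0.069), with upper-quartile factors (0.069) and with ERCC scaling (0.73), in a range of 0.0093 to 0.73 over all alternatives.

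TERF1 (ENSG00000147601, chromosome 8, 73008864 to 73048122) encodes TRF1, which regulates telomere length and helps replication through the repeats. It was at 31.8, 36.6 and 35.2 CPM in siSURF2 replicates 1, 2 and 3, against 26.9, 29.3 and 31.2 CPM in siSCR replicates 1, 2 and 3. The groups were separate by a narrow margin, with a log2 fold change of 0.24 ± 0.07 (edgeR adjusted p = 0.0069). Without siSCR replicate 1 the adjusted p was 0.0597, and without siSURF2 replicate 2 it was 0.0493, in a range of 0.0017 to 0.80 over all alternatives. TERF1 has 7 pseudogene rows in the table, none with more than 9 counts in a library, against at least 452 for TERF1.

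**Figure D2:**
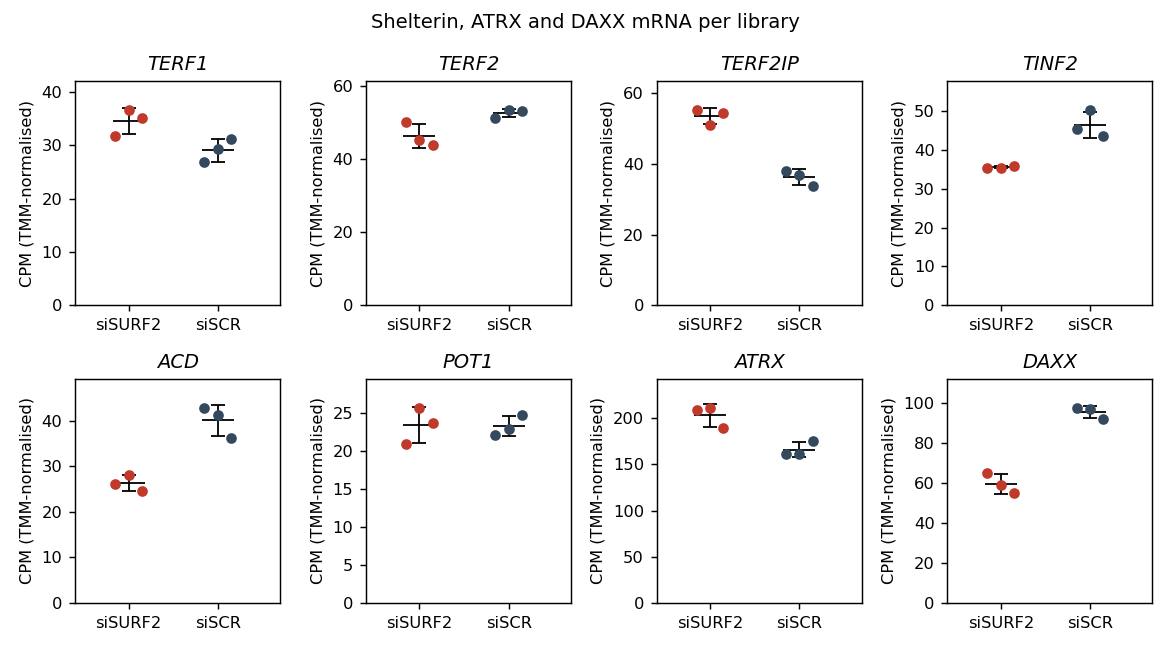
CPM of each gene per library, siSURF2 left and siSCR right, with the mean and SD over 3 libraries as bars and the vertical axis from 0. DAXX and ACD lie lower and TERF2IP higher in every siSURF2 library, while the POT1 groups overlap.

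The bridge subunits TINF2 and ACD both fell. TINF2 (ENSG00000092330, chromosome 14, 24239643 to 24242674) encodes TIN2, the hub of the complex. It was at 35.4, 35.4 and 35.8 CPM in siSURF2 replicates 1, 2 and 3, against 45.5, 50.2 and 43.6 CPM in siSCR replicates 1, 2 and 3. All siSURF2 libraries were lower, with a log2 fold change of -0.39 ± 0.07 (edgeR adjusted p = 1.4e-05).

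ACD (ENSG00000102977, chromosome 16, 67657512 to 67660815) encodes TPP1. It was at 26.2, 28.1 and 24.5 CPM in siSURF2 replicates 1, 2 and 3, against 42.8, 41.2 and 36.2 CPM in siSCR replicates 1, 2 and 3. This was the largest fall within shelterin, 1.52-fold lower (log2 fold change -0.61 ± 0.07, edgeR adjusted p = 8.7e-08), and the groups did not overlap. Exons of ACD share 58 bases with CARMIL2 on the opposite strand, a gene that fell as well (log2 fold change -0.45 ± 0.10, edgeR adjusted p = 3.4e-04). The part of shared reads in the ACD count was not tested.

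POT1 (ENSG00000128513, chromosome 7, 124822386 to 124929983), the partner that TPP1 carries, was at 21.0, 25.7 and 23.7 CPM in siSURF2 replicates 1, 2 and 3, against 22.2, 22.9 and 24.8 CPM in siSCR replicates 1, 2 and 3. The groups overlapped, the log2 fold change was 0.01 ± 0.08 (edgeR adjusted p = 0.94), and its 95% interval ran from -0.16 to 0.18. A change as large as that of ACD or TERF2IP lies outside this interval.

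**Figure D3:**
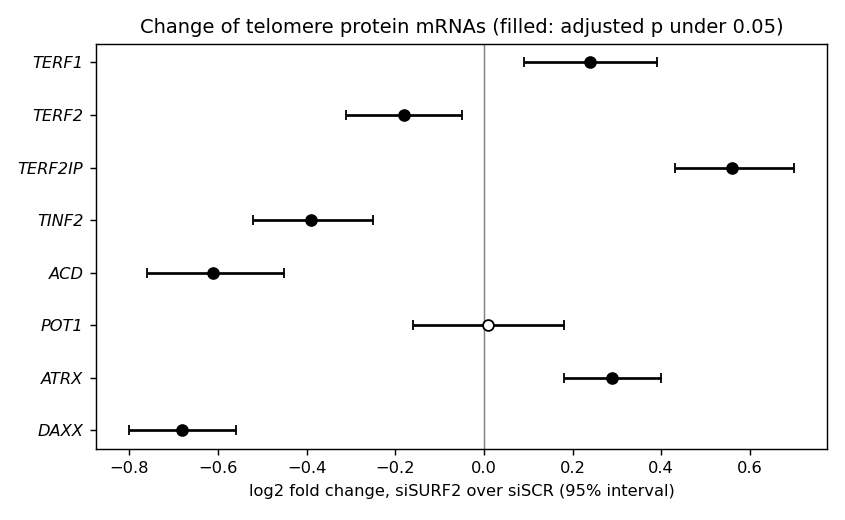
Log2 fold change of siSURF2 over siSCR for the 8 genes tested, with 95% intervals from edgeR. Filled points passed an adjusted p of 0.05. ACD and TINF2 lie left of 0, TERF2IP and TERF1 right of it, and the POT1 interval spans 0.

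The chromatin pair moved apart. DAXX (ENSG00000204209, chromosome 6, 33318558 to 33323016), a histone H3.3 chaperone, was at 64.8, 59.1 and 54.9 CPM in siSURF2 replicates 1, 2 and 3, against 97.5, 97.2 and 91.8 CPM in siSCR replicates 1, 2 and 3. Its siSURF2 libraries were all far below the siSCR libraries, at a 1.60-fold lower level (log2 fold change -0.68 ± 0.06, edgeR adjusted p = 1.6e-10). It was the largest change of the 8. In GENCODE 29, 14.3% of DAXX exon bases are shared with another gene model on the same strand that has no row in the table.

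ATRX (ENSG00000085224, chromosome X, 77504878 to 77786233) encodes a chromatin remodeller. It was at 209, 211 and 189 CPM in siSURF2 replicates 1, 2 and 3, against 161, 161 and 175 CPM in siSCR replicates 1, 2 and 3. All siSURF2 libraries were higher, with a log2 fold change of 0.29 ± 0.05 (edgeR adjusted p = 3.7e-05). Per kb of exon its level was moderate, above 62.7% of protein-coding genes in siSCR, in a line known to lack the protein. Counts per gene do not show which exons were read, so they say nothing about full-length message.

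Scaling bears on all of these calls. With library sizes set by the ERCC spike-in totals, 0 of the 8 genes passed (adjusted p from 0.063 for DAXX and 0.14 for ACD to 0.96 for POT1), and 1627 genes passed in all. Fold changes were close to those above (DAXX -0.72, ACD -0.64, TERF2IP 0.54), and spike-ins held 1.27% to 1.72% of the counts in siSURF2 and 1.12% to 1.72% in siSCR libraries.

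Without siSURF2 replicate 2, the library that stood apart, 6 of the 8 genes passed and TERF2 did not. Log2 fold changes were then -0.68 for DAXX, -0.66 for ACD, 0.60 for TERF2IP, -0.38 for TINF2, 0.26 for ATRX and 0.20 for TERF1.

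Ratios of partner mRNAs within a library need no scaling to library size, and 5 pairs were compared. Counts were not divided by exon length, so a ratio compares the groups and not the levels of its genes. Per kb of exon, DAXX lay above ATRX in both groups (19.3 against 10.5 CPM in siSURF2, 31.0 against 8.61 in siSCR). The ATRX to DAXX ratio of counts was 3.22, 3.58 and 3.45 in siSURF2 replicates 1, 2 and 3, against 1.65, 1.65 and 1.91 in siSCR replicates 1, 2 and 3. It was 1.97-fold higher with siSURF2 (log2 difference 0.98). TERF2IP to TERF2 was 1.10, 1.13 and 1.24 in siSURF2, against 0.742, 0.691 and 0.637 in siSCR (log2 difference 0.75). All siSURF2 ratios lay above all siSCR ratios in both pairs.

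POT1 to ACD was 0.803, 0.914 and 0.967 in siSURF2, against 0.518, 0.556 and 0.687 in siSCR (log2 difference 0.61). TERF1 to TERF2 was 0.635, 0.812 and 0.801 in siSURF2, against 0.524, 0.550 and 0.589 in siSCR (0.43). TINF2 to ACD, the bridge pair that fell together, differed least, at 1.35, 1.26 and 1.46 in siSURF2, against 1.06, 1.22 and 1.20 in siSCR (0.22). In all 5 pairs the groups did not overlap. Each had a two-sided exact permutation p of 0.10, also after adjustment over the 5 pairs, which is the smallest that 3 against 3 libraries allow. Every pair holds a gene that passed the threshold above, so the ratios restate those changes and add no separate support. Single genes did not overlap in 57.3% of all genes tested, and the share among pairs of other genes was not tested.

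**Figure D4:**
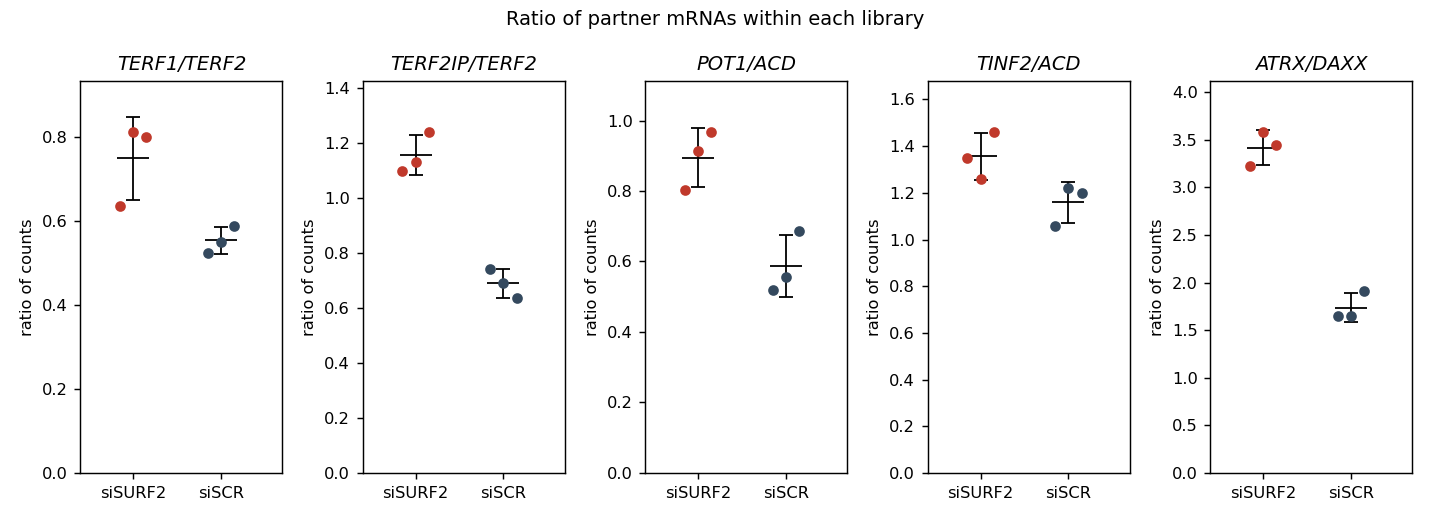
Ratio of counts of partner genes in each library, siSURF2 left and siSCR right, with mean and SD (n = 3 each) and the vertical axes from 0. ATRX to DAXX lies above 3 in siSURF2 libraries and below 2 in siSCR libraries.

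The make-up of shelterin message differed between the groups, as a description without a test. The summed level of the 6 subunits was 53.2 ± 0.432 CPM per kb in siSURF2 and 56.9 ± 2.22 CPM per kb in siSCR (SD, n = 3 each). TERF2IP made up 29.8 ± 1.30% of it in siSURF2 and 18.8 ± 0.726% in siSCR, and ACD 15.3 ± 0.964% in siSURF2 and 21.9 ± 1.30% in siSCR. TINF2 made up 24.6 ± 0.360% in siSURF2 and 30.1 ± 1.17% in siSCR, which made its share the largest in siSCR and second to that of TERF2IP in siSURF2. TERF1 held 7.35 ± 0.550% in siSURF2 and 5.81 ± 0.605% in siSCR. TERF2 held 15.5 ± 0.992% in siSURF2 and 16.4 ± 0.757% in siSCR, and POT1 7.48 ± 0.767% in siSURF2 and 6.97 ± 0.661% in siSCR. These shares of mRNA depend on the length used, here all annotated exons. With the longest transcript as length, TERF2 (17.6 CPM per kb) lies above ACD (15.9) in siSCR, and TERF1 (8.10) above POT1 (5.72).

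Start regions are shown for TINF2, which fell, and TERF2IP, which rose, as the sequence just before the start of a gene from each direction of change. RefSeq windows (GRCh38.p14) were matched for 5 of the 9 genes, and stretches free of annotated exons are printed, 5′ to 3′. Capitals mark matches on either strand to any of 6 motifs. The GC box was searched as GGGCGG and the CCAAT box by its own letters. The E-box was searched as CACGTG and the ETS core as CCGGAAG. The cAMP response element was searched as TGACGTCA and the telomeric repeat as TTAGGG. No matches overlapped. The TINF2 stretch is chr14:24242675-24242924, minus strand, and the TERF2IP stretch chr16:75647680-75647772, plus strand, where the rest of the window lies in exons of KARS1.
TINF2: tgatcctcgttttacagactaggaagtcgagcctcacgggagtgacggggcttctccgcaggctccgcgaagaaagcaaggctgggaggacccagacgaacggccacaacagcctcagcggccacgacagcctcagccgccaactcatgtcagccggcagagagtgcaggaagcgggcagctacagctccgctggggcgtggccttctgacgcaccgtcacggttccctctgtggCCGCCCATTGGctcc
TERF2IP: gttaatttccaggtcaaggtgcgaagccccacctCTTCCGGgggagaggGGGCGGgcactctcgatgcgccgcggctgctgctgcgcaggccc
TINF2 held 1 GC box next to 1 CCAAT box, just before its start, and TERF2IP held 1 ETS core and 1 GC box. The whole 250-base window of TERF2IP, of which the printed stretch is 93 bases, held no further match. Of 35116 windows of 250 bases before a start, 42.6% held a GC box, 32.0% a CCAAT box and 8.52% an ETS core. The E-box was found in 6.34%, the cAMP response element in 1.65% and the telomeric repeat in 7.94% of windows. Neither stretch held the telomeric repeat. A match is a string of letters and not a measured site.

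Of the genes that build telomerase, most of those tested fell. Of 17 genes of telomerase components and assembly, 15 were tested, 10 fell, 1 rose and 4 did not pass. The median log2 fold change was -0.27, against 0.0042 over all genes. Of all genes tested 52.0% passed, 25.8% higher and 26.2% lower, the background for this and the following lists. DKC1, the dyskerin that binds TERC, was at 85.0, 81.5 and 80.1 CPM in siSURF2 replicates 1, 2 and 3, against 133, 136 and 138 CPM in siSCR replicates 1, 2 and 3 (log2 fold change -0.73 ± 0.05, edgeR adjusted p = 1.7e-12). GAR1, another protein of the same particle, fell to 46.5 ± 2.71 CPM, against 70.1 ± 0.873 CPM in siSCR (-0.59 ± 0.06). WRAP53, which brings telomerase to Cajal bodies, was at 23.1 ± 1.50 CPM in siSURF2 and 31.5 ± 1.93 CPM in siSCR (-0.45 ± 0.08). TEP1, a telomerase-associated vault protein, rose to 86.8 ± 2.66 CPM, against 68.5 ± 2.67 CPM in siSCR (0.34 ± 0.06). DKC1, GAR1 and NOP10 also serve ribosomal RNA modification.

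The CST complex and polymerase alpha-primase, which refill the C-rich strand, held 7 genes, of which 5 fell and none rose (median -0.28). PRIM1, the catalytic primase subunit, fell to 68.1 ± 2.19 CPM, against 98.3 ± 1.17 CPM in siSCR (-0.53 ± 0.05), and POLA2 fell by 0.46 ± 0.06 on the log2 scale. Of the CST subunits proper, STN1 fell (-0.18 ± 0.07, edgeR adjusted p = 0.027), the call nearest the threshold in this list. CTC1 had a log2 fold change of -0.03 ± 0.08, and TEN1 was near 0.7 CPM in both groups and could not be judged. With DESeq2, or without siSURF2 replicate 1, siSURF2 replicate 3 or siSCR replicate 2, the list held 4 calls.

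Of 16 shelterin-associated factors, 3 rose, 6 fell and 7 did not pass (median 0.00). TNKS2, a tankyrase that releases TRF1 from telomeres, rose to 140 ± 4.46 CPM, against 112 ± 7.46 CPM in siSCR (0.32 ± 0.05), and SIAH1, a ubiquitin ligase reported to act on TRF2, by 0.34 ± 0.08. DCLRE1B, the Apollo nuclease that TRF2 brings to chromosome ends, fell by 0.40 ± 0.06, as did RLIM, a ubiquitin ligase for TRF1, also by 0.40 ± 0.06.

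Of 28 factors tied to alternative lengthening, 6 rose, 11 fell and 11 did not pass (median -0.08). ASF1B, a histone H3-H4 chaperone, fell to 49.5 ± 2.08 CPM, against 78.0 ± 3.29 CPM in siSCR (-0.66 ± 0.06, edgeR adjusted p = 1.8e-10). ZNF827, a zinc finger protein recruited to telomeres of such cells, rose to 38.9 ± 1.61 CPM, against 25.2 ± 1.30 CPM in siSCR (0.62 ± 0.07), and SMC6 rose by 0.32 ± 0.07. PML, the scaffold of the nuclear bodies at these telomeres, was at 42.1 ± 1.54 CPM in siSURF2 and 42.2 ± 3.60 CPM in siSCR (log2 fold change interval -0.14 to 0.14).

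Of 18 H3.3 and heterochromatin partners of ATRX and DAXX, 4 rose, 7 fell and 7 did not pass (median -0.07). CBX1 (HP1 beta), a reader of heterochromatin, fell to 241 ± 3.92 CPM, against 454 ± 6.46 CPM in siSCR (-0.92 ± 0.05, edgeR adjusted p = 2.3e-15), and CBX3 (HP1 gamma) fell by 0.33 ± 0.05. H3-3A, a gene of H3.3 itself, rose by 0.31 ± 0.06, and CABIN1, of the HIRA complex, by 0.25 ± 0.05.

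Over these 5 lists together with shelterin, ATRX and DAXX, counting each gene once, 17 rose and 43 fell of 92 tested. Over all genes tested, 25.8% passed as higher and 26.2% as lower. Beside the background of 52.0%, 11 of 15 genes passed in the telomerase list, 5 of 7 in the CST list, 9 of 16 in the shelterin-associated list, 17 of 28 in the alternative lengthening list and 11 of 18 in the chromatin list. The counts of the shelterin-associated, alternative lengthening and chromatin lists lie near that background and say little about these lists as groups. With ERCC scaling 3 of the 92 passed.

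**Figure D5:**
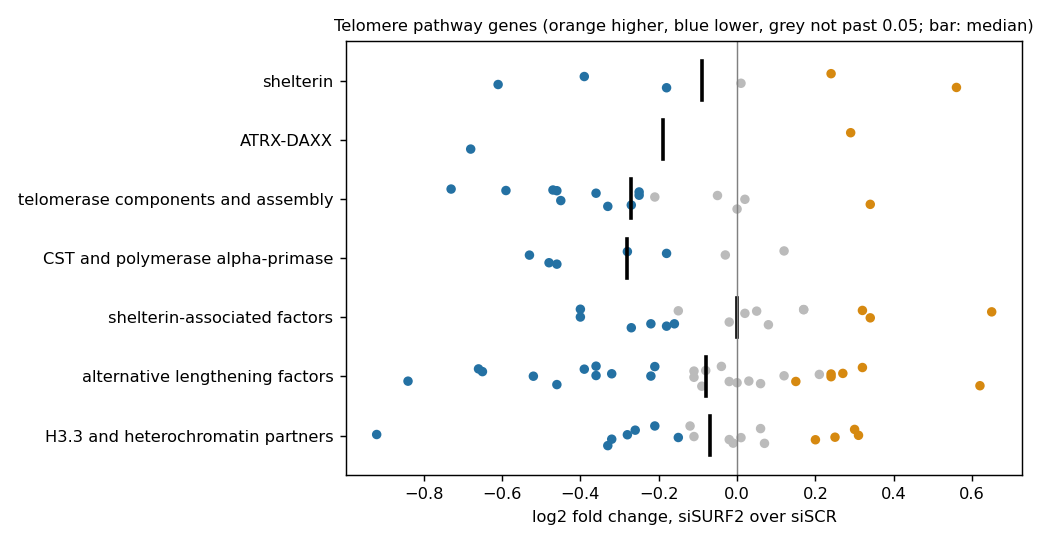
Log2 fold change (siSURF2 over siSCR) of every tested gene in the 7 lists, each point 1 gene, with the list median as a black bar. Orange and blue points passed an adjusted p of 0.05. The telomerase and CST lists lie mostly left of 0, and shelterin spreads to both sides.

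Many other genes had a change near that of DAXX, the member that changed most. Over the 6 libraries, with log2 CPM centred on the siSCR mean, the nearest of 12075 protein-coding genes were FGFR4 (root mean square difference 0.0306), SORBS3 (0.0420) and TUBA3C (0.0480), and 186 genes lay within 0.1. TUBA3C has near-identical paralogs, so its counts are uncertain. Closeness by this measure mostly follows the log2 fold change, which was -0.70 for FGFR4 and SORBS3, -0.65 for TUBA3C and -0.68 for DAXX. Shared regulation was not tested.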

How the data were processed

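Whole-number counts for each gene, deposited by the authors without normalization, were read for 6 polyA libraries. Per the submitters' processing notes, fastp 0.23.1 and STAR 2.5.2b were used with build GRCh38. The counter, its annotation and its use of strand are not stated. Gene names were looked up by identifier (56948 of 58051 identifiers matched), and positions and exon lengths from GENCODE release 29, on the same build. The 92 ERCC rows stayed out of library sizes and tests. PINX1 has 2 rows, of which the one with more counts was used.

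Genes were filtered with filterByExpr (minimum count 10, total 15), scaled with TMM factors and tested by edgeR 4.0.16 (R 4.3.3; quasi-likelihood F-test, robust, group term), with Benjamini-Hochberg adjustment over 17561 genes at 0.05. SE is the fold change without prior count over the root of F. Library totals ran from 17123333 to 19688089 counts, and the Poisson intervals and floors of TERT and TERC cover counting error only. Intervals of fold changes come from the edgeR fit and include the spread between libraries. Members, lists and the rule for naming genes (SURF2, all members, TERC, DKC1, WRAP53 and per list up to 2 genes a direction with the smallest adjusted p, and the 3 protein-coding genes most like the member that changed most) were chosen with earlier results of these data known; other genes named were chosen after their values were seen, and 1 gene that the rule names is not reported here. Alternatives were DESeq2 1.42.0, limma-voom (limma 3.58.1), other scalings and filters, a non-robust prior, a replicate block and leaving out each library. Programs were tested on simulated data.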

Additional observations from a re-analysis of the deposited data

How the results depend on the processing

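Of the 8 genes tested, 6 to 7 passed the threshold under every alternative other than ERCC scaling, where 0 passed, with 1627 genes over the whole table against 9131 and 3 of the 92 list genes against 60. Spike-in totals varied between libraries of 1 group as much as between groups; the cause was not tested further. Leaving out 1 library gave 6 to 7 members, 8051 to 8775 genes in all, 54 to 60 list genes and a SURF2 log2 fold change of -3.37 to -3.25. DAXX (-0.73 to -0.62), ACD (-0.69 to -0.56), TERF2IP (0.51 to 0.61), TINF2 (-0.44 to -0.32) and ATRX (0.23 to 0.34) kept sign and call under 15 of 16 alternatives, all but ERCC scaling. TERF1 kept its call in 14 and TERF2 in 11 of 16, with sign kept in each; TERF2 had an adjusted p of 0.0498 with DESeq2. POT1 never passed and its log2 fold change ran from -0.06 to 0.10. With the longest transcript as length, 4 of 8 genes kept their rank in the baseline order. All 5 ratios kept separate groups without any 1 replicate number; TERF2IP to TERF2 was 0.64 on the log2 scale without replicate 3. The fit with a replicate block called 7 members and 9028 genes and changed no member's call. Same-numbered libraries did not deviate together (correlations 0.00352, -0.0918 and -0.0389), so numbers were not taken as pairs. Low counts limit what can be said of TERT and TEN1, and the polyA library type limits TERC.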

Other observations

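Some related genes of the telomere and chromatin lists differed in opposite directions (pairs chosen after their values were seen; differences within a pair were not tested). ASF1A, the paralog of ASF1B, had 34.4 ± 1.01 CPM in siSURF2 and 28.6 ± 0.981 CPM in siSCR (SD, n = 3 each; log2 fold change 0.27 ± 0.07, edgeR adjusted p = 0.0017), while ASF1B fell by 0.66 ± 0.06. H3-3B, which encodes the same H3.3 protein as H3-3A, was at 804 ± 5.00 CPM in siSURF2 and 928 ± 21.6 CPM in siSCR (-0.21 ± 0.05), while H3-3A rose by 0.31 ± 0.06; both have pseudogenes that make their counts uncertain. NHP2 had a log2 fold change of 0.02 ± 0.05 beside falls of DKC1, GAR1 and NOP10 (-0.33 ± 0.07), its partners in one particle.

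The listed genes of the BLM dissolvase all fell, and those of replication protein A fell in part. RMI1 was at 27.5 ± 2.97 CPM in siSURF2 and 43.1 ± 1.06 CPM in siSCR (-0.65 ± 0.07), RMI2 and BLM each fell by 0.36 ± 0.07, and TOP3A by 0.21 ± 0.06. RPA3 (-0.52 ± 0.06) and RPA2 (-0.39 ± 0.06) fell, while RPA1 had a log2 fold change of -0.02 ± 0.05. The ATPase genes RAD50 (0.24 ± 0.06) and SMC5 (0.24 ± 0.06) rose with SMC6. MRE11 and NBN, which bind RAD50, stayed short of the threshold, at 0.03 ± 0.06 for MRE11 and -0.11 ± 0.06 for NBN on the log2 scale.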
